A study of Homo sapiens with 38 samples.

Results

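The genes described here are 10 parts of the Notch signalling pathway: the receptors NOTCH1, NOTCH2 and NOTCH3, the ligands JAG1, JAG2 and DLL1, and the target genes HES1, HES4, HEY1 and NRARP. They were taken by symbol, through the Ensembl identifier of each row, and each matched 1 of the 60252 rows of both expression tables. Expression is given as TPM, a share of all transcripts corrected for transcript length, in 36 RNA-seq libraries of cultured human prostate epithelial lines. RWPE-1 cells are immortalized prostate epithelial cells that form no tumours. C4-2B, a prostate cancer line, descends from LNCaP and is tetraploid. The study asked how the 7p15.2 region that carries prostate cancer risk variants acts on HOXA13, a homeobox transcription factor.

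In RWPE-1, grown in serum-free keratinocyte medium, 7 libraries carried the edited deletion of the risk region, and 5 control libraries of wild-type genotype carried the label of genome editing too. Another 3 RWPE-1 libraries came from flasks transfected with a HOXA13 expression vector and 3 from flasks given the matching eGFP plasmid. Cells of both were taken at 48 hours, and the brightest 10% by eGFP were kept. In C4-2B, grown with serum, 3 full-deletion clones (lines m, ld9 and le5) and 3 wild-type control lines gave 3 libraries each. The deletion clones went through a pair of editing rounds, the last one with puromycin, and since only 2 colonies were edited again, at least 2 of the 3 share a first-round colony. Labels do not say whether the RWPE-1 libraries of a group were separate clones or cultures, so p-values there measure the spread between libraries, which may be technical.

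Notch receptors are single-pass membrane proteins that are activated by ligands on a neighbouring cell, after which ADAM proteases and gamma-secretase release the intracellular domain. That domain enters the nucleus, binds the DNA-binding protein RBPJ with a MAML coactivator, and turns on genes such as the HES and HEY repressors and NRARP, a feedback regulator that dampens the pathway. In stratified epithelia and in the prostate, Notch signalling is known for its part in the balance between basal and luminal cells.

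HES1 and HES4 carry the RBPJ core motif just before their start, and their sequences are shown because, among the 10 genes, these targets gave the largest differences between eGFP and control cells. RefSeq promoters on GRCh38.p14 were found for 8 of the 10 genes (all but DLL1 and HEY1), and the 250 bases before the start were searched on both strands for GTGGGAA and for the shorter TGGGAA contained in it. GTGGGAA stood once in HES1, from base -85, and once in HES4, from base -77, counted back from the start. A further TGGGAA stood in HES1, from base -70. NOTCH1, NOTCH2, NOTCH3, JAG1, JAG2 and NRARP held neither. Of 35116 promoter windows of the same length, 5.43% held GTGGGAA and 20.8% held TGGGAA, and a match is a description of letters, not a bound site. In the lines below capitals mark TGGGAA. The HES1 window is chr3:194135898-194136147 on the plus strand, and the HES4 window is chr1:1000098-1000347 on the minus strand, both printed 5′ to 3′ in the direction of the gene.
HES1: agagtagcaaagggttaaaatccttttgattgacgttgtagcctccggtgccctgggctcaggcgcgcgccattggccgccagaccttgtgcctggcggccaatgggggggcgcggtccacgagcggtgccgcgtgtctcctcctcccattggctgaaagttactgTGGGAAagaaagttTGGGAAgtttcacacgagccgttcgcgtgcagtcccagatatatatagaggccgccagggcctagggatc
HES4: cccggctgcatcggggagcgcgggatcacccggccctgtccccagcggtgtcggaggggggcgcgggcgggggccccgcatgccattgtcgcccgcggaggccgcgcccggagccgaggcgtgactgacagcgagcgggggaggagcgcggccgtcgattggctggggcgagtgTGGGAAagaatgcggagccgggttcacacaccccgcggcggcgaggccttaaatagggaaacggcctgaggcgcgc

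The cell identities fitted the labels. KRT5, a basal keratin, lay between 2540 and 10310 TPM in every RWPE-1 library and at 0.14 TPM or less in C4-2B. KLK3, the gene of prostate-specific antigen, lay between 958 and 3317 TPM in C4-2B and at 1.15 TPM or less in RWPE-1. HOXA13 stood at 5.27 to 10.1 TPM in the RWPE-1 deletion libraries against 0.65 to 2.41 in their controls, and at 684 to 842 TPM with the HOXA13 vector against 1.79 to 3.77 with eGFP. In C4-2B it lay between 0.78 and 1.16 TPM in the deletion lines and between 0.76 and 1.99 TPM in the control lines, so it was not higher with deletion. The authors' deposited DESeq2 table has it lower there, at -0.52 on the log2 scale (SE 0.143, adjusted p = 0.00626). Line means were 1.39, 1.64 and 0.81 TPM in control lines 1 to 3 and 0.94, 0.97 and 0.98 TPM in lines m, ld9 and le5. Control line 3 thus lay below every deletion line. At these levels near 1 TPM, HOXA13 was not tested with limma in that comparison. In these bulk samples, fewer cells of a type and less RNA per cell cannot be told apart. Library 1 of C4-2B control line 3 stood apart: mitochondrially encoded genes took 28.4% of its TPM and 10.8% to 16.6% in the other 17 C4-2B libraries. C4-2B results that turn on it are given with and without it. The tables of the 2 cell lines were normalized separately, so levels are set side by side between lines without a test.

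NOTCH1 and NOTCH2 stood above 1 TPM in all 36 libraries and NOTCH3 in all 18 of C4-2B, while 3 of the 5 RWPE-1 controls held NOTCH3 below 1 TPM. In RWPE-1 controls NOTCH1 (ENSG00000148400.9_1) was the highest receptor at 55.8 ± 16.3 TPM (SD, n = 5), above 81.6% of the genes at 1 TPM or more. NOTCH2 (ENSG00000134250.18_2) followed at 18.9 ± 2.15 TPM, and NOTCH3 (ENSG00000074181.8_1) was the lowest at 2.22 ± 2.51 TPM. In C4-2B control lines the order of the means was the reverse. The means of the 3 control lines were 16.0 ± 6.53 TPM for NOTCH3, 10.3 ± 1.39 for NOTCH2 and 7.58 ± 1.62 for NOTCH1 (SD, n = 3 lines). Reads of NOTCH2 may be shared with its near-identical NOTCH2NL copies, so its level is uncertain.

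Put as shares of the summed receptor TPM, NOTCH1 held 71.6 ± 6.80% in RWPE-1 controls (SD, n = 5), NOTCH2 25.9 ± 8.32% and NOTCH3 2.53 ± 2.67%. In C4-2B control line 1 NOTCH3 held 50.7 ± 3.97% and NOTCH1 22.1 ± 1.42% (SD, n = 3). NOTCH3 held the largest mean share in 5 of the 6 C4-2B lines, and in control line 3 NOTCH2 stood at 39.3 ± 6.19% and NOTCH3 at 36.7 ± 4.07%. Library 1 of that line had 46.0% NOTCH2 and 35.2% NOTCH3, library 2 had 38.0% and 33.55%, and library 3 had 33.8% and 41.3%. Over libraries 2 and 3 alone the means were 35.9% NOTCH2 and 37.4% NOTCH3, so the order of the means turned without library 1. Shares within a family cannot move alone, since a rise of 1 member lowers the others, and no test was made on them.

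The order of the Jagged ligands also differed. JAG1 (ENSG00000101384.11_1) stood at 68.5 ± 12.1 TPM in RWPE-1 controls (SD, n = 5), above 85.3% of expressed genes, and JAG2 (ENSG00000184916.8_2) at 33.8 ± 4.70 TPM. The C4-2B control lines had JAG2 at 41.1 ± 9.64 TPM and JAG1 at 9.67 ± 2.53 TPM (SD, n = 3 lines). JAG1 thus made up 61.2 ± 2.03% of the ligand TPM in RWPE-1 controls and 13.1 ± 1.08% in C4-2B control line 1, where JAG2 made up 84.8 ± 1.81%. DLL1 (ENSG00000198719.8_1), a ligand of the Delta class, was present in RWPE-1 at 10.1 ± 6.23 TPM and low in C4-2B, at 0.25 to 1.91 TPM in its 18 libraries.

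**Figure D1:**
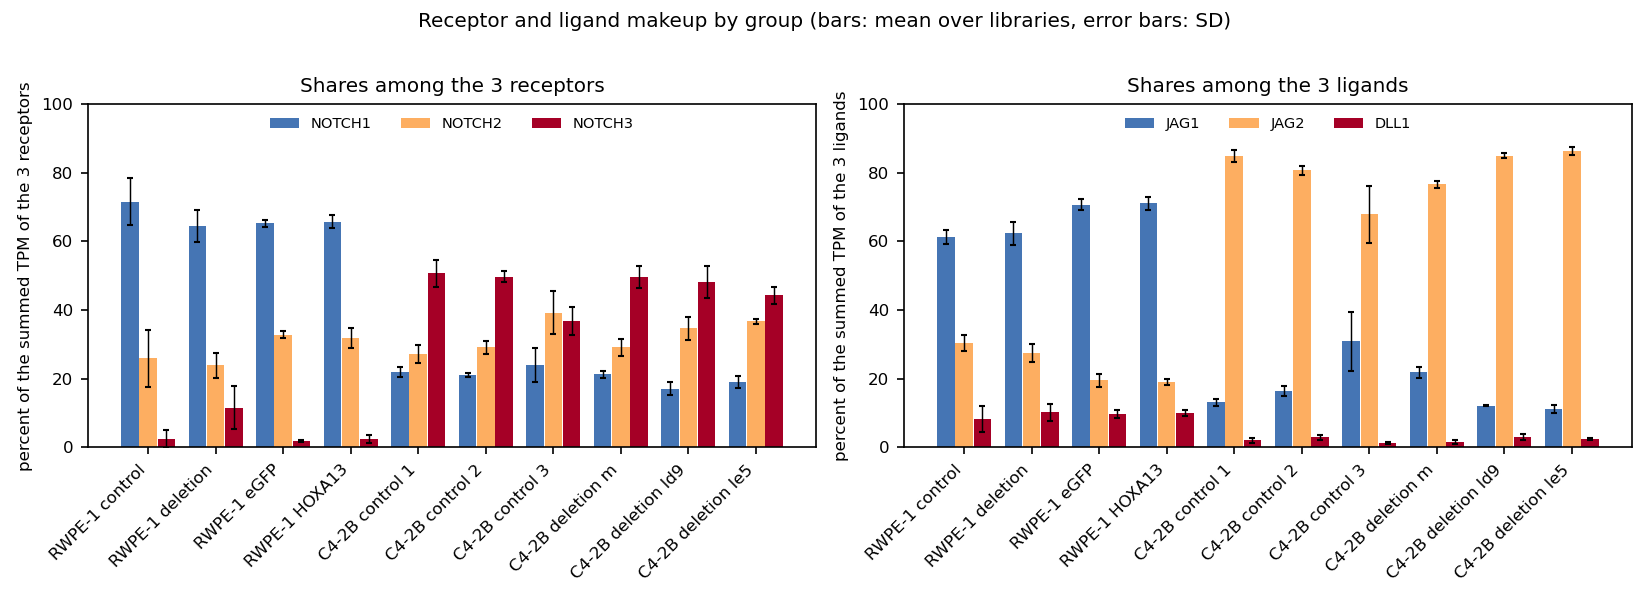
Percent of the summed TPM of the 3 receptors (left) and of the 3 ligands (right) in each group, as means over libraries with SD as error bars. NOTCH1 and JAG1 are the tallest bars in all 4 RWPE-1 groups, JAG2 is the tallest ligand bar in all 6 C4-2B lines, and NOTCH3 is the tallest receptor bar in 5 of them. All libraries are included, the one that stands apart in control line 3 too.

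Among the targets, HES1 (ENSG00000114315.3_1) stood at 19.5 ± 4.50 TPM in RWPE-1 controls (SD, n = 5) and at 24.8 ± 3.02 TPM in the C4-2B control lines (SD, n = 3 lines). HES4 (ENSG00000188290.10_1) stood at 15.2 ± 7.74 and 53.7 ± 21.6 TPM, and NRARP (ENSG00000198435.3_2) at 8.54 ± 3.80 and 28.3 ± 5.21 TPM. HEY1 (ENSG00000164683.16_2) was low in both, at 0.304 ± 0.154 and 1.56 ± 0.402 TPM.

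Deletion of the risk region in RWPE-1 went with higher NOTCH3 and NRARP. NOTCH3 was 7.28, 6.52, 21.4, 7.61, 24.5, 5.69 and 6.28 TPM in deletion libraries 1 to 7. Its 5 control libraries had 4.26, 5.57, 0.45, 0.24 and 0.56 TPM. The groups did not overlap, but the lowest deletion library (5.69) and the highest control library (5.57) nearly met. Both groups were uneven: deletion libraries 3 and 5 lay far above the other five, and control libraries 1 and 2 far above the other three. On the log2(TPM + 1) scale, which understates changes of low genes, NOTCH3 rose by 2.08 (SE 0.496, limma adjusted p = 0.0186). It passed with any single library left out and, narrowly, without the filter on low values (limma adjusted p = 0.0496). Control libraries 3, 4 and 5 lay below 1 TPM, so NOTCH3 met the filter of 1 TPM in at least 5 libraries only through the deletion libraries. Neither its call nor its lack of overlap is therefore separate support. With replicate numbers as a block in the fit, NOTCH3 did not pass (2.32, limma adjusted p = 0.0980). Its spread among the deletion libraries, an SD of 0.812 on that scale, was larger than that of 99.1% of the 10591 genes at a mean of 5 TPM or more.

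NRARP was 18.3, 16.0, 14.4, 14.1, 17.1, 17.4 and 12.4 TPM in the deletion libraries and 10.2, 8.88, 7.28, 13.4 and 3.05 TPM in the controls. Only deletion library 7 lay below the highest control, library 4. NRARP rose by 0.91 on the log2 scale (SE 0.242, limma adjusted p = 0.0311). Its call was lost without the filter on low values (adjusted p = 0.0748) and without deletion library 1, 2, 5 or 6 (adjusted p = 0.0598, 0.0545, 0.0600 and 0.0592), with differences between 0.87 and 0.91. The call was also lost with replicate numbers as a block in the fit (0.94, limma adjusted p = 0.109).

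The other receptors and the ligands did not pass. NOTCH1 lay between 48.4 and 71.8 TPM in the deletion libraries, with a median of 55.0, and between 35.0 and 75.8 in the controls, with a median of 58.3, a log2 difference of 0.11 (SE 0.171, limma adjusted p = 0.711). NOTCH2 was the steadiest, at 19.9 to 22.7 TPM with deletion and 16.8 to 21.3 in controls. Its difference of 0.18 (SE 0.0701) had a limma adjusted p of 0.107, and of 0.0468 without control library 3. JAG1 spanned 58.6 to 94.9 TPM against 55.1 to 82.4, JAG2 24.6 to 39.1 against 28.1 to 40.7, and DLL1 9.64 to 17.1 against 2.86 to 18.03. Their log2 differences were 0.16 (SE 0.134), -0.01 (SE 0.115) and 0.45 (SE 0.319), and each group pair overlapped. These values moved with single libraries: omissions gave -0.04 to 0.23 for NOTCH1, 0.09 to 0.23 for JAG1, -0.07 to 0.06 for JAG2 and 0.13 to 0.70 for DLL1. Control library 3 gave the lowest of each when left out. Control libraries 1 and 2 held the highest control values of NOTCH1, JAG1, JAG2 and DLL1, as of NOTCH3, but not of NOTCH2 or of any target.

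HES1, the archetypal Notch target, was 24.1, 23.1, 29.1, 26.6, 35.3, 23.5 and 20.4 TPM in the deletion libraries and 22.7, 19.2, 11.8, 22.5 and 21.2 TPM in the controls. Its log2 difference of 0.41 (SE 0.162) had a limma adjusted p of 0.117. The deletion libraries with the highest NOTCH3, numbers 3 and 5, also had the highest HES1 and HES4, but not the highest NRARP (libraries 1 and 6) or HEY1 (library 4). Among controls, library 4 had the lowest NOTCH3 and the second highest HES1 and HES4. HES4 was 12.4, 14.4, 17.2, 12.7, 15.5, 12.7 and 10.8 TPM with deletion, inside the 5.48 to 22.9 TPM of the controls, and its difference of 0.01 ranged from -0.28 to 0.19 with single libraries left out. HEY1, at 0.28 to 1.54 TPM with deletion and 0.09 to 0.50 in controls, failed the filter of 1 TPM in at least 5 libraries. Its log2 difference of 0.31 had an exact two-sided permutation p of 0.0922 over 792 arrangements of the 12 libraries.

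Together, 2 of the 9 genes tested rose and none fell, where 6.46% of the 14186 genes tested rose and 10.3% passed in either direction. The median difference of the 9 was 0.185, against 0.0541 over all genes tested. Without overlap between the groups stood 1 of the 9, NOTCH3, and 6.70% of all genes. NOTCH3, which is in both counts, entered the test only through its deletion values. Scaling the libraries by median ratios instead of using the TPM as deposited raised the share of lower genes among all calls from 37.4% to 53.8%, and left NOTCH3 at 2.04 (adjusted p = 0.0242) and NRARP at 0.87 (adjusted p = 0.0444). Under that scaling HES4 turned from 0.01 to -0.04.

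The authors' deposited table of this comparison, made with DESeq2, differs in which genes pass. In the authors' deposited table NRARP stands at 0.67 on the log2 scale (SE 0.212, adjusted p = 0.0138) and HEY1 at 0.87 (SE 0.267, adjusted p = 0.00986), from a mean normalized count of 26.4 for HEY1. NOTCH3 is there at 0.65 (SE 0.253, adjusted p = 0.0558) and HES1 at 0.33 (SE 0.148, adjusted p = 0.103). In it, 17.4% of the 17985 genes with an adjusted p pass, and 2 of the 10 Notch genes do. Whether its fold changes are shrunken is not stated. In the authors' table of HOXA13 against eGFP, HOXA13 itself stands at 2.08, where limma gave 7.70. Sizes in the deposited tables are therefore not to be set against the limma differences.

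**Figure D2:**
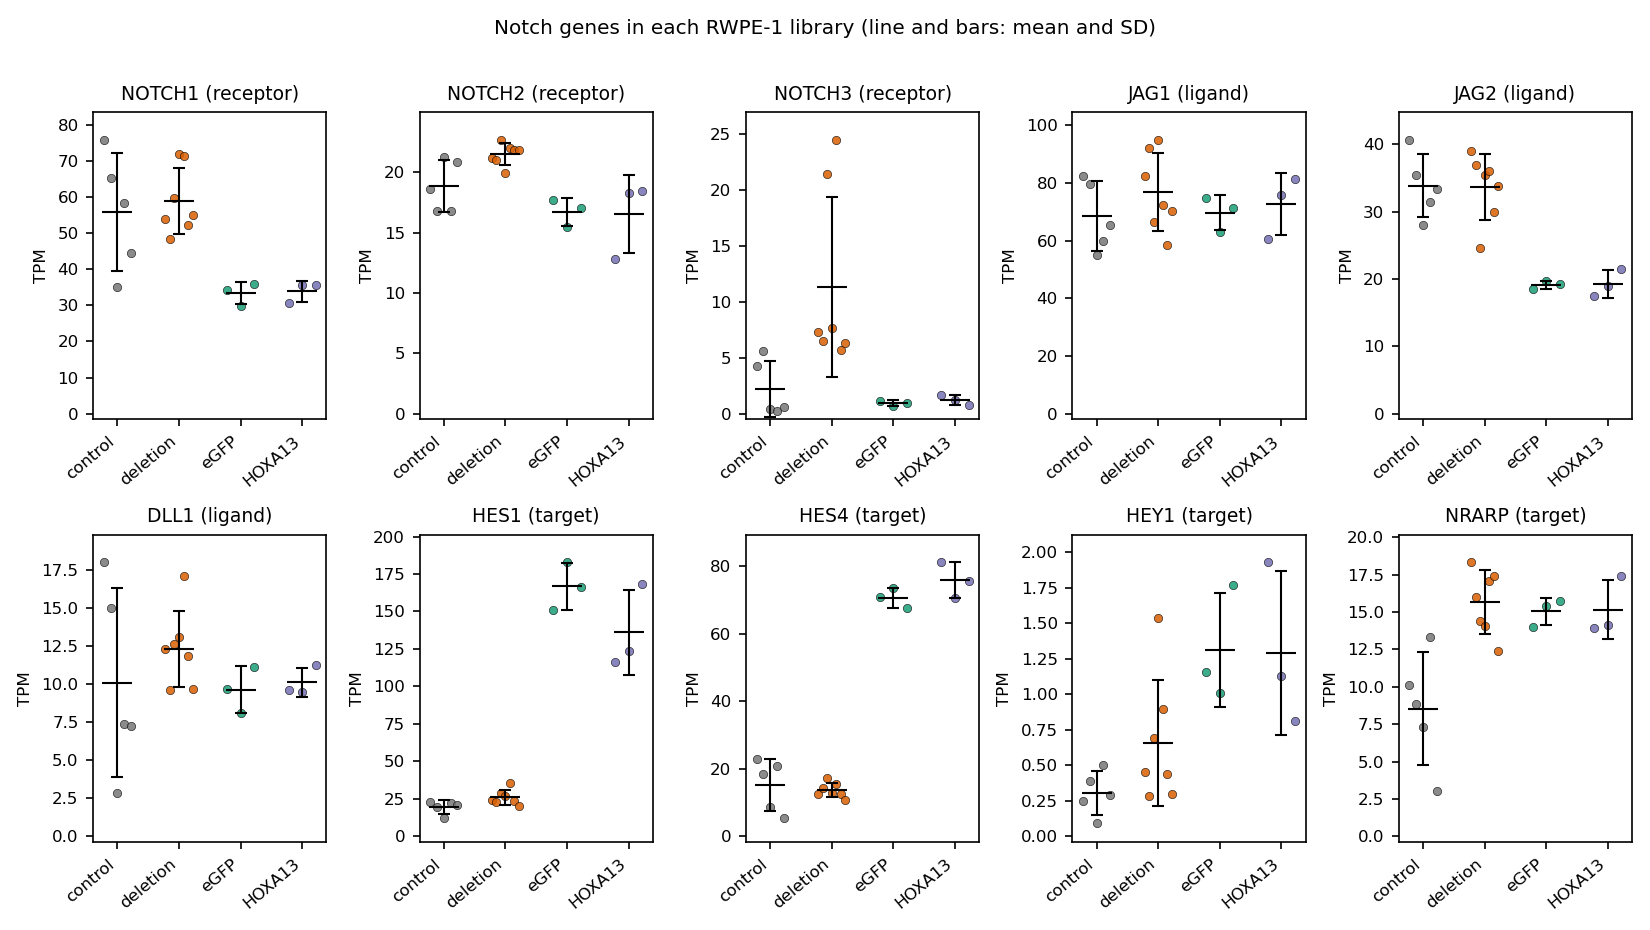
TPM of the 10 genes in each RWPE-1 library (points), with group means and SD. NOTCH3 deletion libraries lie at 5.69 to 24.5 TPM and control libraries at 0.24 to 5.57 TPM, and HES1 and HES4 stand highest in the eGFP and HOXA13 groups.

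Of the 20 expressed genes nearest to NOTCH3 on its chromosome in RefSeq order, the median deviation from the mean of the 18 RWPE-1 libraries was -0.20 in controls and -0.11 in deletion libraries on the log2 scale. NOTCH3 itself stood at -0.72 and 1.36 by the same measure. For NRARP the 18 neighbours had medians of -0.10 and -0.01, and NRARP stood at -0.64 and 0.27.

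Of the 63 other pathway genes listed, 53 were tested in this comparison, 3 rose and 2 fell, where 10.3% of all genes tested passed. The share is thus close to that of all genes. The median difference was 0.0349, against 0.0541 over all genes tested. DLL3, an atypical Delta ligand, rose by 0.48 (SE 0.110, limma adjusted p = 0.0165), from 1.23 ± 0.341 to 2.08 ± 0.251 TPM. HES2, a relative of HES1, rose by 0.94 (SE 0.182, limma adjusted p = 0.00656), from 6.31 ± 1.65 to 13.0 ± 3.06 TPM. ITCH, a ubiquitin ligase that acts on Notch, rose by 0.25 (SE 0.0504, limma adjusted p = 0.00836). MAML1, the nuclear coactivator, fell by 0.48 (SE 0.0653, limma adjusted p = 8.35e-04), from 17.8 ± 1.38 to 12.5 ± 0.745 TPM. NEURL1B, a ligase for ligand uptake, fell by 0.79 (SE 0.149, limma adjusted p = 0.00570). Both genes that fell lie on chromosome 5, where 313 of 594 tested genes fell, 6 rose and the median difference was -0.39, against 0.06 elsewhere. Its part in these differences was not tested. None of the 10 Notch genes lies on that chromosome.

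Overexpression of HOXA13 was not accompanied by a called change of any of the 10 genes. All 10 were tested, 0 passed and 0 stood without overlap between the groups. Of all 14814 genes 0.0135% passed with limma (2 genes, 2002 at an unadjusted p under 0.05), and 21.1% stood without overlap. The largest difference was that of HES1, at 116, 124 and 168 TPM with HOXA13 and 151, 183 and 166 TPM with eGFP. It amounted to -0.31 on the log2 scale (SE 0.144, limma adjusted p = 0.406), and the highest HOXA13 library lay above a pair of the eGFP libraries. NOTCH1 was 30.6, 35.6 and 35.5 TPM with HOXA13 and 34.2, 29.9 and 35.9 TPM with eGFP, a difference of 0.02 (SE 0.102). NOTCH3 stayed low, at 1.65, 1.26 and 0.78 TPM against 1.16, 0.71 and 0.98 TPM, a difference of 0.18 (SE 0.207, limma adjusted p = 0.729).

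The remaining 7 genes differed by -0.03 to 0.10 on the log2 scale, and the median of the 10 was 0.0154, against 0.0356 over all genes. JAG1 was 60.6, 75.9 and 81.3 TPM against 74.6, 62.9 and 71.4 TPM, and JAG2 17.4, 19.0 and 21.4 TPM against 18.5, 19.7 and 19.2 TPM. NRARP stood at 14.0, 14.2 and 17.4 TPM against 14.0, 15.4 and 15.7 TPM. Of the pathway list 0 of 54 tested genes passed. The authors' deposited table has 12329 genes with an adjusted p, of which 12.1% pass, and 0 of the 9 Notch genes that have one do, HES1 being nearest at -0.26 on the log2 scale (SE 0.103, adjusted p = 0.0775). Without HOXA13 library 1 HES1 differed by -0.20 (adjusted p = 0.544), and single omissions gave -0.47 to -0.20.

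The deletion effect and the HOXA13 effect were also compared directly, in 1 fit of the 18 RWPE-1 libraries. None of the 10 genes passed, against 4.11% of 16117 genes tested. The difference of effects was 1.90 for NOTCH3 (SE 0.752, limma adjusted p = 0.162), 0.90 for NRARP (SE 0.368, limma adjusted p = 0.173) and 0.72 for HES1 (SE 0.264, limma adjusted p = 0.133). NOTCH3 and NRARP, called in 1 comparison and not in the other, are therefore not shown to differ between them. Of the pathway list MAML1 passed, at -0.68 (SE 0.129, limma adjusted p = 0.00848).

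**Figure D3:**
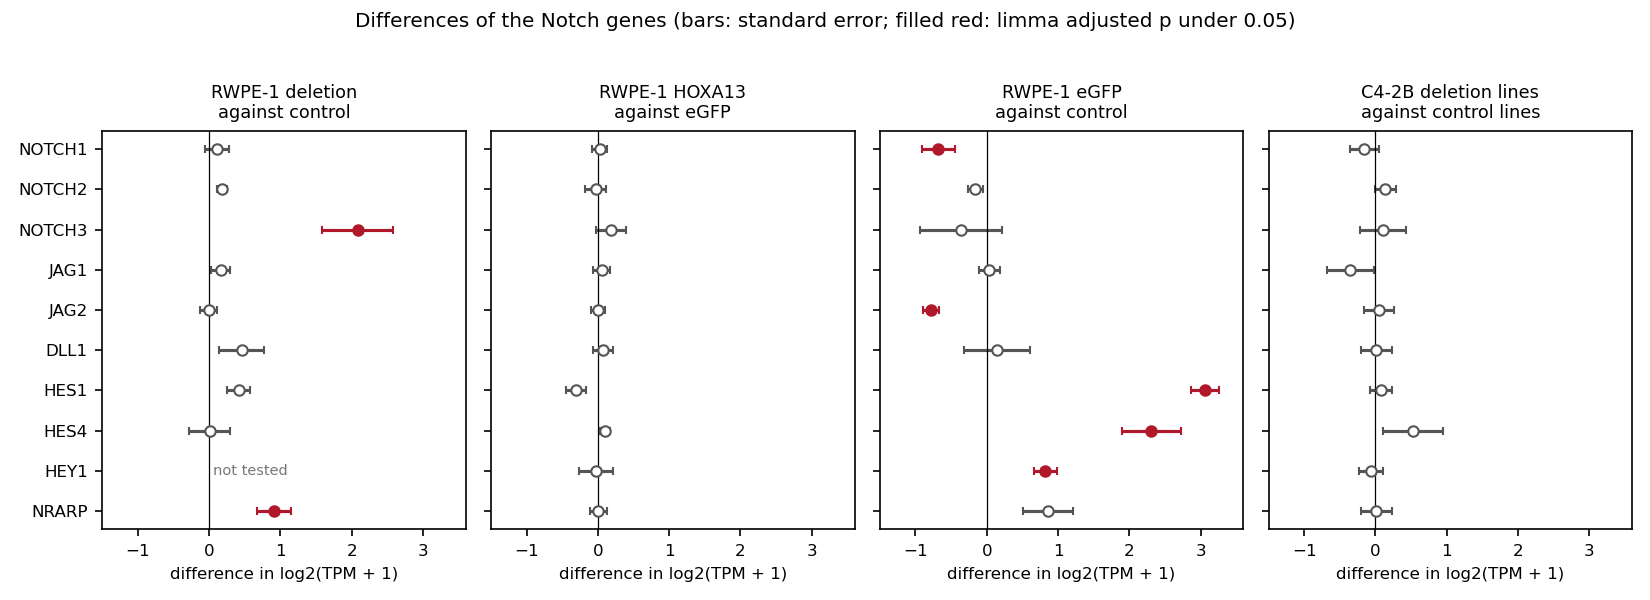
Difference in log2(TPM + 1) of each gene in 4 comparisons, with standard errors, where filled red points passed limma at an adjusted p under 0.05. NOTCH3 and NRARP are filled for the RWPE-1 deletion, 5 genes for eGFP against control, and 0 for HOXA13 against eGFP and for the C4-2B lines. HEY1 was not tested for the RWPE-1 deletion.

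HES1, HES4 and HEY1 were higher in the eGFP flasks than in the edited controls, groups that differ in transfection, sorting and editing history, which cannot be told apart. HES1 was 151, 183 and 166 TPM with eGFP and 11.8 to 22.7 TPM in the controls. It was 3.06 higher on the log2 scale (SE 0.198, limma adjusted p = 1.19e-05) and stood above 94.7% of expressed genes, against 55.6% in controls. HES4 was 70.8, 73.7 and 67.7 TPM against 5.48 to 22.9 TPM, 2.31 higher (SE 0.416, limma adjusted p = 0.00216). HEY1 was 1.16, 1.01 and 1.77 TPM against 0.09 to 0.50 TPM, 0.82 higher (SE 0.162, limma adjusted p = 0.00341). Since every control lay below 1 TPM, HEY1 met the filter only through the eGFP libraries. Its lack of overlap followed from that, and neither it nor the call is separate support. HES1, HES4 and HEY1 did not overlap between the groups. The promoters of HES1 and HES4 hold GTGGGAA, and HEY1 had no promoter to search. NRARP, which also did not overlap, holds no match. The part of the motif in these differences was not tested.

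NRARP was higher too, at 14.0, 15.4 and 15.7 TPM against 3.05 to 13.4 TPM, by 0.86, but did not pass (SE 0.351, limma adjusted p = 0.0715). It passed without control library 4 or 5 (adjusted p = 0.0329 and 0.0309) and with all 18 RWPE-1 libraries in 1 fit (adjusted p = 0.0115). JAG2 was 18.5, 19.7 and 19.2 TPM with eGFP and 28.1 to 40.7 TPM in controls, and fell by 0.78 (SE 0.116, limma adjusted p = 8.43e-04). NOTCH1 fell by 0.68 (SE 0.229, limma adjusted p = 0.0371), from 35.0 to 75.8 TPM in controls to 29.9 to 35.9 TPM. That call was lost without the filter (adjusted p = 0.0724), with any eGFP library left out (adjusted p = 0.0732 to 0.124) and without control library 1, 2 or 4 (adjusted p = 0.0591, 0.0705 and 0.0683). NOTCH2, NOTCH3, JAG1 and DLL1 did not pass, with differences of -0.16, -0.36, 0.04 and 0.14.

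As a count, 5 of the 10 genes passed, 3 higher and 2 lower, where 47.1% of 15066 genes passed, so the share is close to that of all genes. Those without overlap were also 5 of 10, against 48.6% of all genes. HEY1, which is in both counts, entered the test only through its eGFP values. Of the pathway list 17 of 54 tested genes were higher and 9 lower, with a median of 0.12, against 0.015 over all genes tested. The 10 with the smallest adjusted p were the cell cycle inhibitor CDKN1A (2.22 higher), the gamma-secretase subunit PSEN2 (2.25 higher), the corepressors TLE1 (0.92 higher), CIR1 (0.78 higher) and CTBP2 (0.41 higher), MAML1 (0.67 higher), DTX3 (0.80 higher), NEURL1 (1.298 higher), the ligand ubiquitin ligase MIB1 (fell by 1.19) and the deacetylase HDAC2 (fell by 0.51). PSEN2 rose from 1.29 ± 0.608 to 9.63 ± 1.22 TPM. The summed TPM of 5 immune markers was 138 to 161 with eGFP and 11.5 to 60.9 in controls, with 2 markers at a mean of 1 TPM or more and PTPRC and MS4A1 at 0. The 6 basal markers summed to 7333 to 7726 TPM with eGFP and 9361 to 17220 TPM in controls, and the 8 luminal markers to 870 to 958 TPM against 329 to 699, with KLK3 at 0 in every control. The 6 fibroblast markers summed to 16.5 to 20.2 TPM against 2.86 to 8.70, with COL3A1, DCN and LUM at 0 in every control. Only 1 of the 6 reached a mean of 1 TPM in either group, so these sums rest mostly on few genes. The 4 neuroendocrine markers summed to 4.20 to 5.57 TPM against 1.33 to 2.89, with 2 and 1 at that mean. The part of any of these lists in the results was not tested.

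In C4-2B no called difference was found between deletion lines and control lines in the 10 genes. Lines were the replicates, though the deletion lines did not all come from separate first-round colonies. In this test 0 of 10 genes passed, as did 0% of the 14820 genes tested with limma (529 at an unadjusted p under 0.05). All 10 overlapped between the 3 deletion and 3 control lines, and 9.53% of all genes did not. NOTCH1 had means of 7.50, 5.98 and 5.95 TPM in lines m, ld9 and le5 and of 8.78, 8.24 and 5.74 TPM in control lines 1 to 3, a difference of -0.15 (SE 0.203). HES4 was 76.3, 62.9 and 58.6 TPM against 66.8, 65.6 and 28.7 TPM, a difference of 0.53 (SE 0.419). JAG1 differed by -0.35 (SE 0.330). The other 7 genes differed by -0.06 to 0.14, and every limma adjusted p was 0.993 or higher. With library 1 of control line 3 left out the differences were -0.29 for NOTCH1, 0.215 for HES4 and -0.40 for JAG1. JAG2, DLL1, HES1 and NRARP turned to -0.10, -0.04, -0.03 and -0.19, NOTCH2 stood at 0.07, NOTCH3 at 0.01 and HEY1 at -0.06, and no adjusted p was below 0.878. With all of control line 3 left out HES4 differed by -0.02 and NOTCH3 by -0.29. The authors' deposited table passes 8.56% of 17075 genes and 0 of the 10, with NOTCH1 nearest at -0.31 on the log2 scale (SE 0.120, adjusted p = 0.0938). Of the pathway list 0 of 48 tested genes passed.

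Differences among the 6 C4-2B lines were called for JAG1 and NOTCH3. JAG1, the most abundant ligand of RWPE-1, was 11.3, 12.9 and 14.1 TPM in the libraries of deletion line m but 5.79, 4.98 and 5.57 in ld9 and 4.75, 5.49 and 5.27 in le5. Control lines lay between or beside them, with means of 7.57 ± 0.367, 8.94 ± 1.12 and 12.5 ± 2.10 TPM (SD, n = 3 each). Line m and control line 3 were thus the highest and lines ld9 and le5 the lowest, without overlap with the other 4 lines. In the test for any difference among the 6 lines, whose error is the spread between libraries of a line, JAG1 spanned 1.15 on the log2 scale (limma F test, adjusted p = 1.69e-05). The 20 neighbours of JAG1 on its chromosome had median deviations of -0.01 in line m, 0.05 in ld9 and 0.05 in le5, where JAG1 stood at 0.57, -0.52 and -0.58.

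NOTCH3 also passed that test, spanning 1.23 (limma F test, adjusted p = 0.00338). In order, its means were 20.3 ± 2.26 and 19.3 ± 1.58 TPM in control lines 1 and 2, 17.6 ± 1.93 in m, 16.96 ± 2.91 in ld9, 13.8 ± 1.08 in le5 and 8.51 ± 3.48 in control line 3. The first 4 overlap with their neighbours in that order. Line le5 stands just below ld9, its highest library at 15.08 TPM against a lowest of 15.13, and control line 3 below le5. These 2 of 10 genes compare with 33.6% of 16225 genes that passed. Of the pathway list 20 of 50 tested genes passed, led by the corepressor HDAC2 (adjusted p = 1.69e-05), the protease FURIN (adjusted p = 6.87e-04) that cuts the Notch precursor, and HES2 (adjusted p = 7.09e-04), which was 10.6 ± 1.297 TPM in line m and 2.18 ± 1.42 to 6.04 ± 1.11 TPM in the other lines. EP300, DTX3L, KAT2A, MIB2, ITCH and NEURL1 followed, with adjusted p from 0.00401 to 0.0119.

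**Figure D4:**
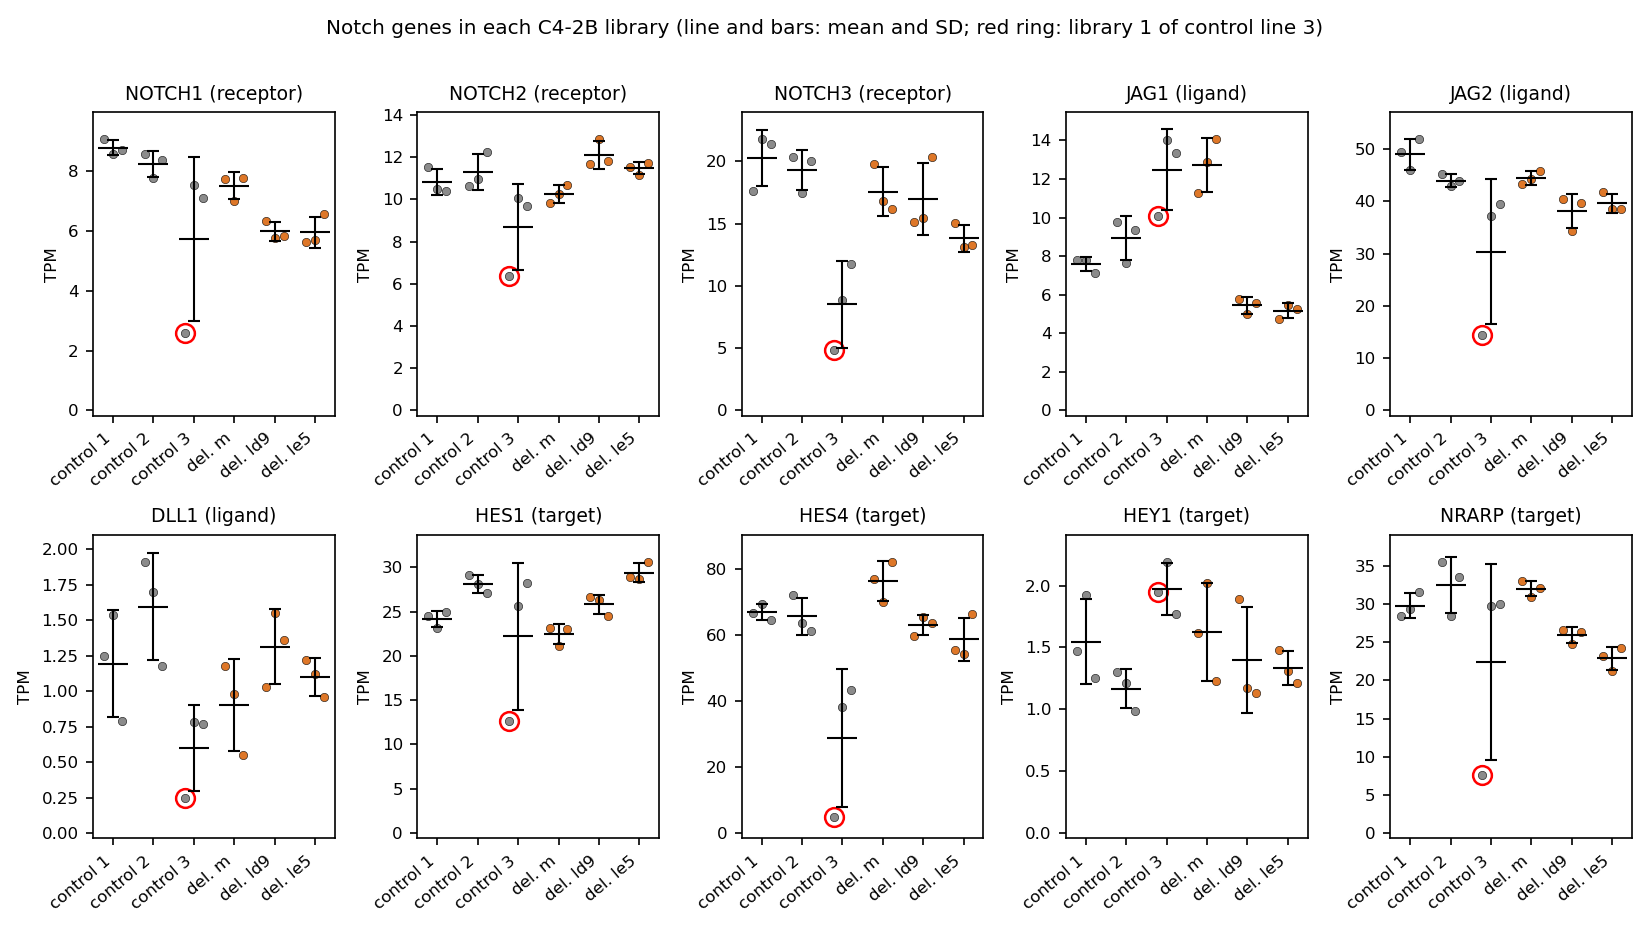
TPM of the 10 genes in each C4-2B library (points) by line, with means and SD, controls in grey, deletion lines in orange and library 1 of control line 3 ringed in red. JAG1 is at 4.75 to 5.79 TPM in lines ld9 and le5 and at 11.3 to 14.1 TPM in line m, and the ringed library is the lowest of all 18 for 8 of the 10 genes.

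Library 1 of control line 3 set the spread of that line for most members. HES4 was 4.94 TPM there and 38.0 and 43.3 TPM in libraries 2 and 3, a log2 difference of -2.81 that only 71 of 10412 genes (0.682%) exceeded downward. NRARP was 7.57 TPM against 29.8 and 30.0, with 4.73% of genes lower still. JAG2 was 14.4 TPM against 37.2 and 39.6, NOTCH1 2.59 against 7.52 and 7.11, and HES1 12.7 against 25.7 and 28.3. JAG1, at 10.1 TPM against 14.0 and 13.3, lay near the middle, with 49.0% of genes lower, and the median gene differed by -0.39. Without this library, 8 of the 10 genes passed the test among the 6 lines and 50.6% of all genes did. The 6 that were added were NOTCH1 (adjusted p = 2.64e-04), NOTCH2 (0.0436), JAG2 (0.00238), HES1 (9.59e-04), HES4 (1.07e-04) and NRARP (6.97e-04). HES4 then spanned 0.89 between lines instead of 1.83. DLL1 and HEY1 passed in neither case. NOTCH2 and HES4 also passed without library 2 of that line, and JAG2 and HES4 without library 3.

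**Figure D5:**
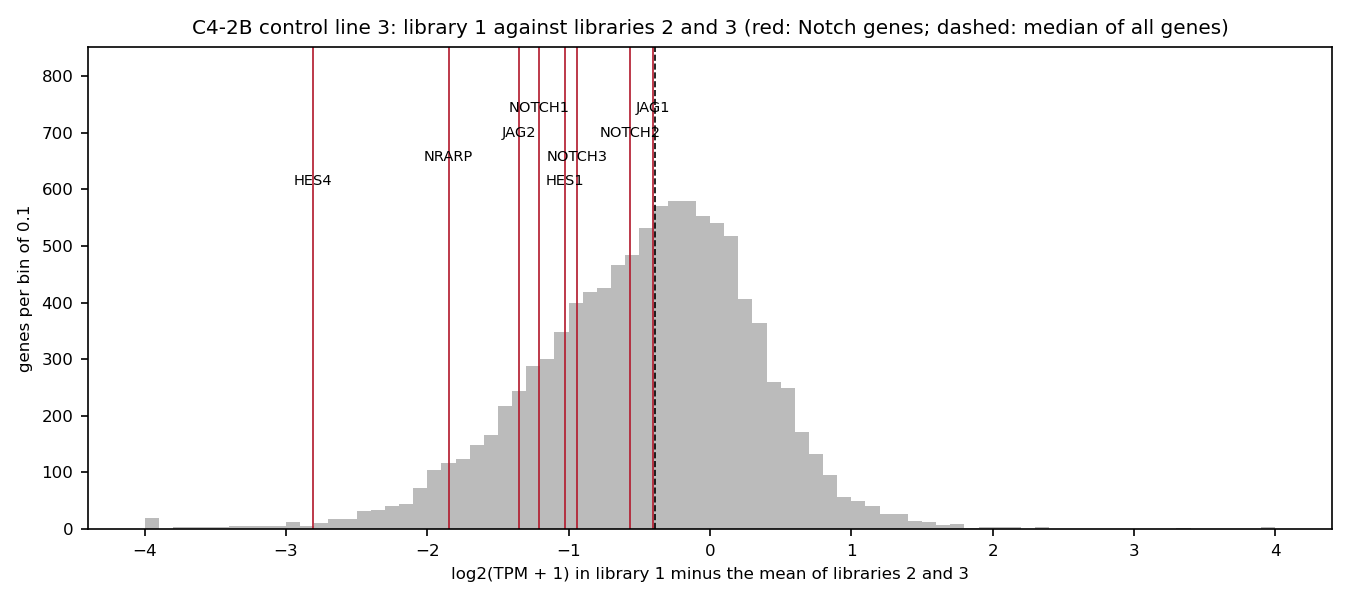
Histogram over 10412 genes at a mean of 5 TPM or more in libraries 2 and 3 of C4-2B control line 3 of the log2(TPM + 1) difference of library 1 from their mean, with values beyond 4 drawn at 4. Red lines mark the 8 of the 10 genes that reach that level, from HES4 at -2.81 to JAG1 at -0.40, and the dashed line marks the median of -0.39.

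Genes that moved most alike with each member were sought by the correlation of deviations from the group means over the 18 libraries of a table, among other genes at a mean of 5 TPM or more, the 10 Notch genes left out, as a description without a test. Libraries share depth and handling, which such a correlation includes. In RWPE-1 these were NRP1 for NOTCH1 (r = 0.929), KANSL1 for NOTCH2 (r = 0.917), CA2 for NOTCH3 (r = 0.888), SNAI2 for JAG1 (r = 0.875), PLCH2 for JAG2 (r = 0.832) and ETS2 for DLL1 (r = 0.943). Among targets they were MIR210HG for HES1 (r = 0.815), SOX9 for HES4 (r = 0.932) and ADGRG1 for NRARP (r = 0.921). Each r is the highest Pearson value found in that search. Rank correlations of the target pairs were lower, at 0.686, 0.767 and 0.699, and those of the receptor and ligand pairs were 0.759 to 0.911. SOX9 is on the pathway list, and the others are not. In C4-2B the highest correlations ran from 0.921 (FBXO42 with JAG1) to 0.997 (NPDC1 with HES4). With library 1 of control line 3 left out, JAG1 kept FBXO42 (r = 0.917), while the other 7 genes compared had another partner, SLC25A17 in the case of HES4 (r = 0.875).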

How the data were processed

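RNA-seq used a stranded kit, per the labels' protocols. Per the submitters' processing notes, the tools were Trimmomatic 0.35, STAR 2.5.2b, RSEM 1.3.0, featureCounts 1.5.1 and DESeq2 1.14.1 on GRCh37; their roles are not stated. The authors deposited TPM per gene for 18 libraries of each cell line, so depth per library is unknown and no counting interval was computed. The comparison tables the authors deposited hold log2 fold changes, mean normalized counts and standard errors (treated as a score each) and p-values, per the file headers. They were copied, not recomputed.

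log2(TPM + 1) was fitted with limma 3.58.1 in R 4.3.3 (eBayes with trend, two-sided) for genes at 1 TPM or more in at least the smaller group's number of samples; Benjamini-Hochberg adjusted p under 0.05 was called. C4-2B line means were replicates. The procedure was run on simulated data with known changes, and the outcome is not reported here. Simulated libraries had independent noise without differences between C4-2B lines, so that run does not show how the line comparison handles such differences. Of 60252 identifiers 55487 matched a symbol. The members and lists were chosen with earlier results of these data known. Named are the members, HOXA13, up to 10 called pathway genes with the smallest adjusted p, and the most alike gene of each member; cell markers were named after their values were seen. Some listed genes are not reported here. Shares of receptors and ligands were planned with a permutation test and are given without one. Hi-C was not analysed here.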

Additional observations from a re-analysis of the deposited data

Results flagged for a closer look

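HES1 in control library 3 of RWPE-1 stood apart from the other 4 control libraries. It was 11.8 TPM there and 19.2 to 22.7 TPM in the others, and the gap to the nearest library was 0.737 of the whole range on the log2(TPM + 1) scale, above the limit of 0.710 for 5 samples. Among 20 combinations of gene and group examined this way it was the single one, and chance flags about 1 in 20. Without that library the HES1 difference between deletion and control was 0.25 instead of 0.41.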

How the results depend on the processing

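Of 941 values of the 10 genes under other settings, 911 kept their call, 15 lost it and 15 gained it. None that was called in either fit changed sign, while 67 called in neither did, with adjusted p of 0.437 or higher. Labels do not state that replicate numbers pair the samples. Same-numbered RWPE-1 deletion and control libraries correlated at -0.150 to 0.143 in their deviations from the group means. Deletion libraries 1 and 4 were most alike to the control of their own number and libraries 2, 3 and 5 were not. These correlations cannot exclude a pairing. With the replicate block NOTCH3 (2.32, adjusted p = 0.0980) and NRARP (0.94, adjusted p = 0.109) did not pass in the RWPE-1 deletion, nor did NOTCH1 in eGFP against control (-0.73, adjusted p = 0.0948), where NRARP passed (0.73, adjusted p = 0.0265). With the replicate block 449 genes instead of 1464 were called for the RWPE-1 deletion, 1 instead of 2 for HOXA13, 98 instead of 662 for the difference of effects, and 10 instead of 0 in C4-2B. Without the filter the counts were 1 for HOXA13 and 6 in C4-2B. All 18 RWPE-1 libraries in 1 fit gave 131 for HOXA13, and 18 C4-2B libraries with the line as a random effect gave 24. Leaving out 1 library or line gave 1 to 5 for HOXA13, 284 to 1103 for the difference of effects and 0 to 7 in C4-2B. The HOXA13 count was 4 without HOXA13 library 2, and 5 and 1 without eGFP library 1 or 2, and the C4-2B count was 7 without control line 3 and 2 without line m. The count for the difference of effects was 407 without HOXA13 library 1, 388 and 284 without eGFP library 1 or 3, and 1103 without control library 3. The cause of these shifts was not tested. Depth is unknown, so HEY1 and DLL1 near 1 TPM are the least certain levels.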
